A study of Mus musculus with 8 samples.

Results

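Marker genes of the resident macrophages that lie along blood vessels were measured by single-nucleus RNA-seq of mouse visceral white adipose tissue. The 10 genes are Mrc1, Cd163, Lyve1, Timd4, Vsig4, Folr2, F13a1, Cbr2, Stab1 and Maf. They were taken by symbol from the deposited count matrices, which list 56749 features, and each of the 10 symbols had 1 row. The study held 8 libraries, 1 per mouse, in 4 groups of 2 mice. All mice carried mCherry at the p21 (Cdkn1a) locus. Mice of genotype p21+/mCherry were fed a standard diet (mCherry SD, rep144 and rep146) or a high-fat diet (mCherry HFD, rep128 and rep129). Mice of genotype p21+/mCherry-Tert (Tert HFD, rep134 and rep136) and p21+/mCherry-TertCi (TertCi HFD, rep138 and rep140) were fed the high-fat diet, and no group held a Tert or TertCi mouse on standard diet. The p21 promoter drove the Tert or TertCi gene, per the series' design text, which speaks of the stromal vascular fraction and of p21+/- mice where the sample labels give whole visceral fat and p21+/mCherry. The labels used here do not spell out what TertCi stands for and give no age.

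Fat holds a resident population of macrophages that sit against small vessels, take up proteins, haem complexes and dying cells, and are renewed slowly in place. Obesity brings in monocyte-derived cells that surround dying adipocytes and switch on genes of lipid uptake and lysosomes, the lipid-associated macrophages. Mrc1 (the mannose receptor, CD206), Cd163 (the haemoglobin-haptoglobin receptor) and Stab1 (stabilin-1, a scavenger receptor) take up ligands from outside the cell. Lyve1 binds hyaluronan, Timd4 (TIM-4) binds phosphatidylserine on dying cells, Vsig4 (CRIg) is a complement receptor and Folr2 binds folate. F13a1 encodes the A chain of coagulation factor XIII, Cbr2 a carbonyl reductase, and Maf a transcription factor of the large Maf family that acts in macrophages and in other cells.

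The members that the results turn on are Timd4, Vsig4 and Stab1, whose levels differed between groups inside perivascular-like nuclei, and Mrc1, whose differences did not pass the test there. Their promoters are shown because Timd4 moved against Vsig4 and Stab1, as RefSeq gives them for GRCm38.p6, from 250 bases before to 50 bases after the annotated start, 5′ to 3′ on the gene's own strand. Capitals mark matches on either strand to 4 short motifs: the PU.1 core GAGGAA, the letters TGCTGAC, a part of the Maf recognition element (MARE), the E-box TCACGTG of MiT factors and the AP-1 site TGANTCA. Timd4 (ENSMUSG00000055546) lies at chr11:46810549-46810848 on the plus strand, Vsig4 (ENSMUSG00000044206) at chrX:96293389-96293688 on the minus strand, Stab1 (ENSMUSG00000042286) at chr14:31168592-31168891 on the minus strand and Mrc1 (ENSMUSG00000026712) at chr2:14229164-14229463 on the plus strand.
Timd4: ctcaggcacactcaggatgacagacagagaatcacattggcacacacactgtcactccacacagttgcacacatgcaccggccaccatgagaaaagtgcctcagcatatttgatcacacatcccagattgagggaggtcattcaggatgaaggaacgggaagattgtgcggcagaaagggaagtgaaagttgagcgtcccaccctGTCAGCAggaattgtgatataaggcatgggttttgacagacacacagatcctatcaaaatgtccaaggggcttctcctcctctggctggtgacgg
Vsig4: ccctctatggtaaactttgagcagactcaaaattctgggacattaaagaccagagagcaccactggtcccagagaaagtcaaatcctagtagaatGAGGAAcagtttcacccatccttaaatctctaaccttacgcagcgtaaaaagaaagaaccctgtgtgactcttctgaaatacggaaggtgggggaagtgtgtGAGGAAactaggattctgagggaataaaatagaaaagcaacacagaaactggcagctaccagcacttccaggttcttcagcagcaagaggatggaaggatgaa
Stab1: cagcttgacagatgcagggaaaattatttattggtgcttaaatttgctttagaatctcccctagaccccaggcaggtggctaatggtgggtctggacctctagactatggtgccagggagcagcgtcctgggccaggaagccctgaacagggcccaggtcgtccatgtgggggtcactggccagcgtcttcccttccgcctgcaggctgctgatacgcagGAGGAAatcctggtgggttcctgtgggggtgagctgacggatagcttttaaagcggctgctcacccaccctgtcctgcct
Mrc1: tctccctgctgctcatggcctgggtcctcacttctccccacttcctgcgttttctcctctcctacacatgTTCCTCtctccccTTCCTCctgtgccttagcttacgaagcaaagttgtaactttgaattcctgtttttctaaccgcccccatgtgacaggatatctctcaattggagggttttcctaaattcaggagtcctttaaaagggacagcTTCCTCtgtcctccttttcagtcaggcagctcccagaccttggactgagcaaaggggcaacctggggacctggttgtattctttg

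The Timd4 window held 1 match to the partial MARE, 45 bases before the start, and no PU.1 core. The Vsig4 window held 2 PU.1 cores, the Stab1 window held 1, 30 bases before the start, and the Mrc1 window held 3 on the opposite strand. Of the 8 members with a promoter in the table (Lyve1 and Maf had none), 5 held a PU.1 core, 2 the partial MARE, 1 an AP-1 site and 0 the E-box. Of all 32851 promoter windows, 28.3% held the PU.1 core, 4.67% the partial MARE, 7.81% the AP-1 site and 3.77% the E-box. These are matches of letters in 1 window per start site and say nothing of binding.

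The 8 libraries held 23378488 to 139749876 UMIs (unique molecular identifiers, which count RNA molecules), and 30209 nuclei were kept, 1978 to 7433 per library. Median UMIs per nucleus ran from 1682 in the Tert rep136 to 7133 in the Tert rep134, so the 2 Tert mice were the shallowest and the deepest. Any pair of libraries shared 14 barcodes at most. In all nuclei, Tert stood at 2.35 and 1.44 CPM (UMIs of a gene scaled to a fixed total per library) in the Tert mice and at 3.82 and 3.88 in the mCherry HFD mice, but whether the counting reference holds the inserted gene is not given in the sources used here, so these values do not check the labels. Nuclei were clustered without the 10 members, and clusters were named from marker lists that hold no member. Of the nuclei, 8930 were macrophage-like; all 12 macrophage markers were detected in these nuclei of every library. They made up 4.40% and 5.74% of nuclei in mCherry SD, 51.3% and 50.9% in mCherry HFD, 27.6% and 29.3% in Tert HFD and 20.3% and 15.9% in TertCi HFD. Clusters with markers of more than 1 lineage were called mixed and left out, and held 60.3% and 53.0%, 19.3% and 24.6%, 29.0% and 15.8%, and 19.5% and 31.9% of nuclei in the same order. Their part in the macrophage shares was not tested. The macrophage-like nuclei numbered 112 and 172, 3815 and 1464, 961 and 933, and 1159 and 314 in the same order.

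Where the members were read differed between groups. The share of a member's UMIs in all kept nuclei that lay in macrophage-like nuclei, over the 10 genes and the mice of a group, was 5.56% to 26.8% in mCherry SD, 45.8% to 73.8% in mCherry HFD, 31.9% to 73.9% in Tert HFD and 20.0% to 74.4% in TertCi HFD. Maf had the lowest share of the 10 in each of the 8 libraries. The share of Timd4 was 12.3% and 18.4% in mCherry SD, 55.3% and 65.9% in mCherry HFD, 52.4% and 41.2% in Tert HFD, and 69.0% and 31.6% in TertCi HFD. Of F13a1 UMIs, for example, 14.1% and 25.2% lay in macrophage-like nuclei in mCherry SD and 69.9% and 53.6% in mixed clusters. Some of these clusters carry progenitor and macrophage markers together, and there F13a1 stood at 2910 and 2685 CPM in mCherry SD and at 638 and 846 CPM in mCherry HFD. The results on macrophage-like nuclei therefore leave out most of the members' UMIs in the mice on standard diet. Maf was also read in progenitor-like nuclei, which form adipocytes, at 189 to 346 CPM in the 8 libraries. Barcodes with 100 UMIs or fewer held 202 to 414 CPM of Maf, and the part of free RNA in the progenitor-like level was not tested. Timd4 was also read in dendritic-like nuclei, at 108 to 257 CPM in the 6 high-fat libraries, although these rested on 7 to 71 nuclei each. Adipocyte-like nuclei, which should lack F13a1 and Mrc1, held 219 to 670 CPM of F13a1 and 90.7 to 389 CPM of Mrc1, and barcodes with 100 UMIs or fewer held 465 to 1166 CPM of F13a1 and 267 to 633 CPM of Mrc1, so free RNA of these 2 genes was present in all 8 libraries.

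In the summed macrophage-like nuclei, the question of the first comparison was how a high-fat diet moved the members in mCherry mice. The test called 6 of them lower and 0 higher. F13a1 stood at 5518 and 6124 CPM in mCherry SD and at 1366 and 1490 CPM in mCherry HFD. The 2 groups lay far apart. The fitted log2 change was -2.19 ± 0.27 (SE of the fit over all groups, n = 2 mice per group). The quasi-likelihood test of edgeR gave an adjusted p = 0.000271 by the Benjamini-Hochberg method over all genes. Timd4, the phosphatidylserine receptor, stood at 180 and 115 CPM on standard diet and at 7.47 and 16.9 CPM on high-fat diet, the largest change of the 10 (log2 -3.84 ± 0.50, edgeR adjusted p = 0.000381). Lyve1 stood at 82.4 and 155 CPM against 31.4 and 27.3 CPM (log2 -2.21 ± 0.39, edgeR adjusted p = 0.00229). Cd163 stood at 360 and 539 CPM against 191 and 142 CPM (log2 -1.60 ± 0.38, edgeR adjusted p = 0.0124). These receptors were lower in both high-fat mice than in either mouse on standard diet, as were 2915 of the 13869 genes tested.

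Mrc1 stood at 2062 and 2497 CPM on standard diet and at 1014 and 1246 CPM on high-fat diet (log2 -1.17 ± 0.20, edgeR adjusted p = 0.00185). Maf, the transcription factor, stood at 577 and 718 CPM against 369 and 368 CPM (log2 -0.97 ± 0.23, edgeR adjusted p = 0.0129). The other 4 members did not pass the test: the log2 change was 0.49 ± 0.62 for Vsig4, -0.51 ± 0.35 for Folr2, -0.86 ± 0.46 for Cbr2 and -0.20 ± 0.25 for Stab1. Of these, Vsig4 pointed up, at 54.1 and 56.3 CPM against 91.8 and 80.3 CPM. Of the 13869 genes tested, 9.40% were called lower and 11.4% higher, against 6 and 0 of the 10 members. The median log2 change was -1.07 over the members and 0.10 over all genes. Without the standard-diet rep146, 3 members stayed called lower (Mrc1, Timd4 and F13a1). Summed B cell markers in the same nuclei, with 4 to 7 of 7 markers detected per library, also moved with the groups: 1464 and 1283 CPM in mCherry SD, 244 and 499 in mCherry HFD, 703 and 685 in Tert HFD, and 1046 and 903 in TertCi HFD. The sum was not split by marker, so 1 gene of the list could carry it. The part of these markers in the result was not tested. When the nuclei were taken by 3 or more macrophage markers each in place of clusters, which added nuclei of other clusters (740 in place of 112 in rep144), 2 members were called lower, Timd4 and F13a1, and Vsig4 was called higher (log2 1.80).

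**Figure D1:**
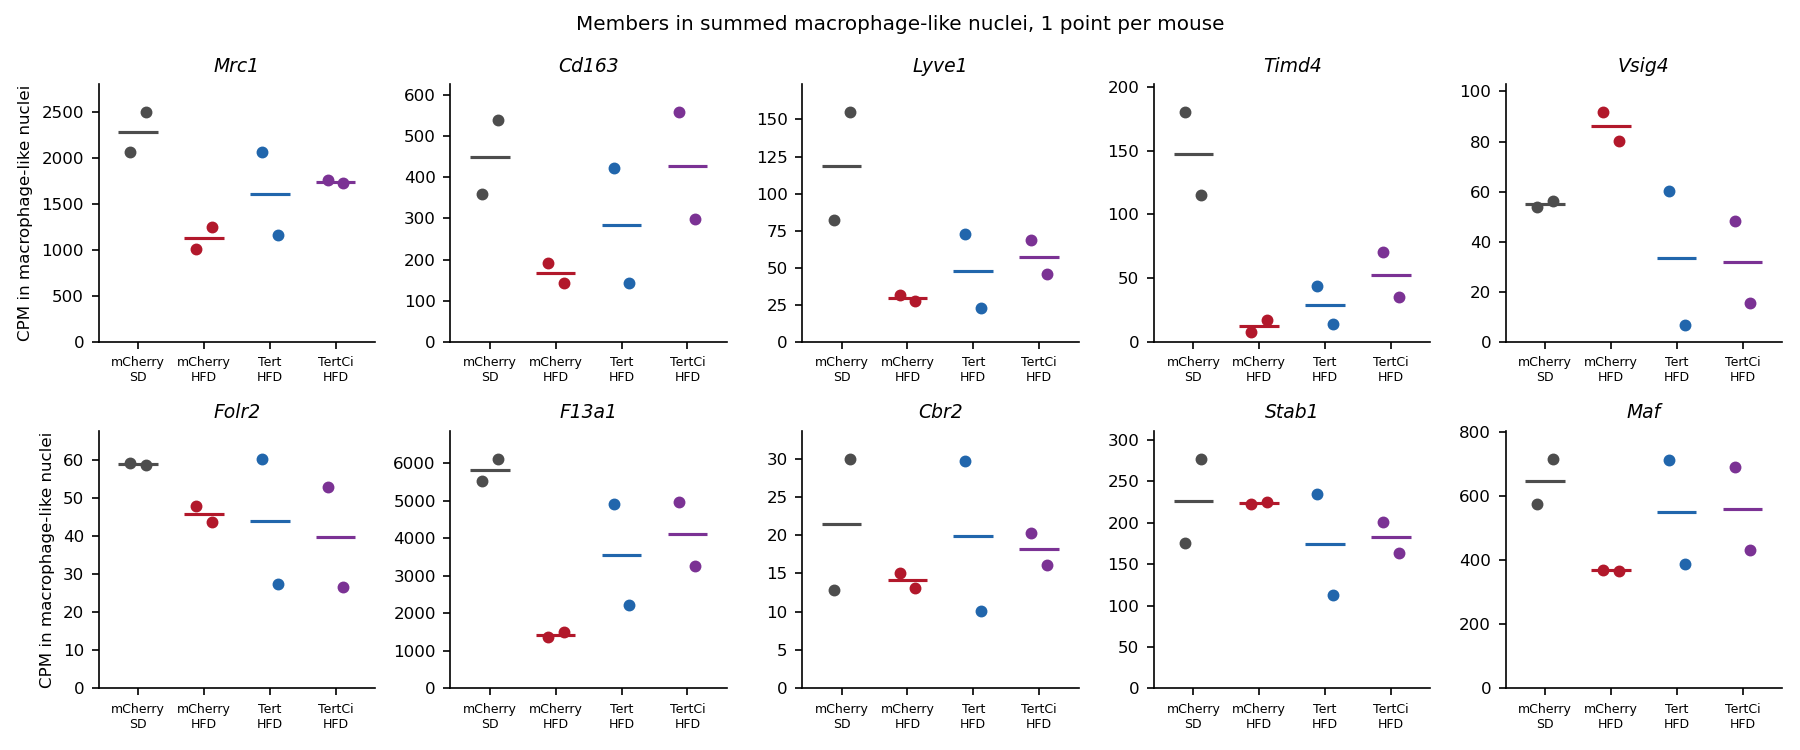
Level of each member in the summed macrophage-like nuclei (vertical axis, CPM, from 0) in the 4 groups (horizontal axis). Each point is 1 mouse and each line the mean of 2 mice; F13a1, Timd4, Lyve1, Cd163, Mrc1 and Maf are lower in both mCherry HFD mice than in both mCherry SD mice, and Vsig4 is highest in the mCherry HFD mice.

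The other comparisons asked what the p21-driven Tert and TertCi genes did on high-fat diet, and both use the same 2 mCherry HFD mice. In Tert mice 3 members rose and none fell. F13a1 stood at 4909 CPM in rep134 and 2219 CPM in rep136, above both mCherry HFD mice (log2 1.43 ± 0.26, edgeR adjusted p = 0.00442). Mrc1 stood at 2065 and 1157 CPM (log2 0.63 ± 0.19, edgeR adjusted p = 0.0417) and Timd4 at 43.6 and 14.1 CPM (log2 1.61 ± 0.47, edgeR adjusted p = 0.0344), and for both genes the shallow rep136 lay between the 2 mCherry HFD mice. Maf, at 714 and 388 CPM, missed the threshold (log2 0.71 ± 0.23, edgeR adjusted p = 0.0504). Of all genes tested, 6.83% were called higher and 11.0% lower.

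The 2 Tert mice differed from each other. Cd163 stood at 423 CPM in rep134 and 143 CPM in rep136, Lyve1 at 72.9 and 22.8 CPM, Vsig4 at 60.3 and 6.70 CPM, and Stab1 at 235 and 113 CPM. In rep136, 54.8% of macrophage-like nuclei fell in 1 lipid-associated-like subcluster led by Tmem267 and Rn18s-rs5, against 16.1% in rep134. Without rep136, 7 members were called higher; without rep134, 1 was called higher (F13a1) and 2 lower (Vsig4 and Stab1). Leaving out mCherry HFD rep128 or TertCi rep138 left 1 member called higher (F13a1). On library totals in place of TMM scaling, 1 member was called higher (F13a1). Without the macrophage-like cluster led by Cd226 and Skint3, an alternative chosen after seeing the data, 7 were called higher.

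In TertCi mice 6 members rose and none fell, again against the shared mCherry HFD mice. F13a1 stood at 4960 and 3254 CPM (log2 1.68 ± 0.27, edgeR adjusted p = 0.00131) and Timd4 at 70.6 and 34.8 CPM (log2 2.46 ± 0.47, edgeR adjusted p = 0.00358). Cd163 stood at 559 and 297 CPM (log2 1.52 ± 0.37, edgeR adjusted p = 0.0115), and Lyve1 at 68.7 and 46.1 CPM (log2 1.15 ± 0.36, edgeR adjusted p = 0.0355). Mrc1 stood at 1755 and 1723 CPM (log2 0.78 ± 0.19, edgeR adjusted p = 0.0136) and Maf at 690 and 432 CPM (log2 0.77 ± 0.23, edgeR adjusted p = 0.0291). All 6 were higher in both TertCi mice than in either mCherry HFD mouse, as were 3047 of the 13869 genes tested. Cbr2, which was not called, was also higher in both. Of all genes tested, 9.84% were called higher and 14.6% lower. Vsig4, at 48.4 and 15.4 CPM, gave log2 changes of -1.08 ± 0.52 in Tert and -1.14 ± 0.53 in TertCi mice and did not pass the test in either (edgeR adjusted p = 0.174 and 0.143). Without TertCi rep138, 1 member stayed called higher (F13a1); without mCherry HFD rep128 or rep129, 3 did. On library totals the count was 3, and with nuclei taken by 3 macrophage markers it was 2.

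Between Tert and TertCi mice, 0 members and 0% of genes were called by edgeR in macrophage-like nuclei, in all nuclei and in perivascular-like nuclei. At an unadjusted p under 0.05, 550 of 13869 genes and 0 members passed in macrophage-like nuclei, and DESeq2 called 0 genes there. In all nuclei 1898 genes and 4 members passed unadjusted and DESeq2 called 174 genes, and in perivascular-like nuclei 475 genes and 2 members passed unadjusted and DESeq2 called 3 genes. No test of a difference between the Tert and the TertCi response beyond this contrast was made.

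Members were read together in the same nuclei. With every nucleus thinned to 1000 UMIs, which left out 27 nuclei of Tert rep136, 58.0% and 68.6% of macrophage-like nuclei held 3 or more members in mCherry SD. The share was 21.7% and 21.5% in mCherry HFD, 54.3% and 25.2% in Tert HFD, and 50.7% and 39.8% in TertCi HFD. In adipocyte-like nuclei at the same depth it was 1.97% to 6.57%. Without thinning the shares in macrophage-like nuclei were 86.6% and 89.0%, 58.2% and 43.8%, 80.5% and 33.4%, and 68.9% and 59.2%. Thinned or not, the macrophage-like clusters of mCherry SD held the highest shares. With nuclei taken by 3 macrophage markers they did not: 30.8% and 31.0% in mCherry SD against 38.0% in Tert rep134 and 39.8% in TertCi rep138.

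**Figure D2:**
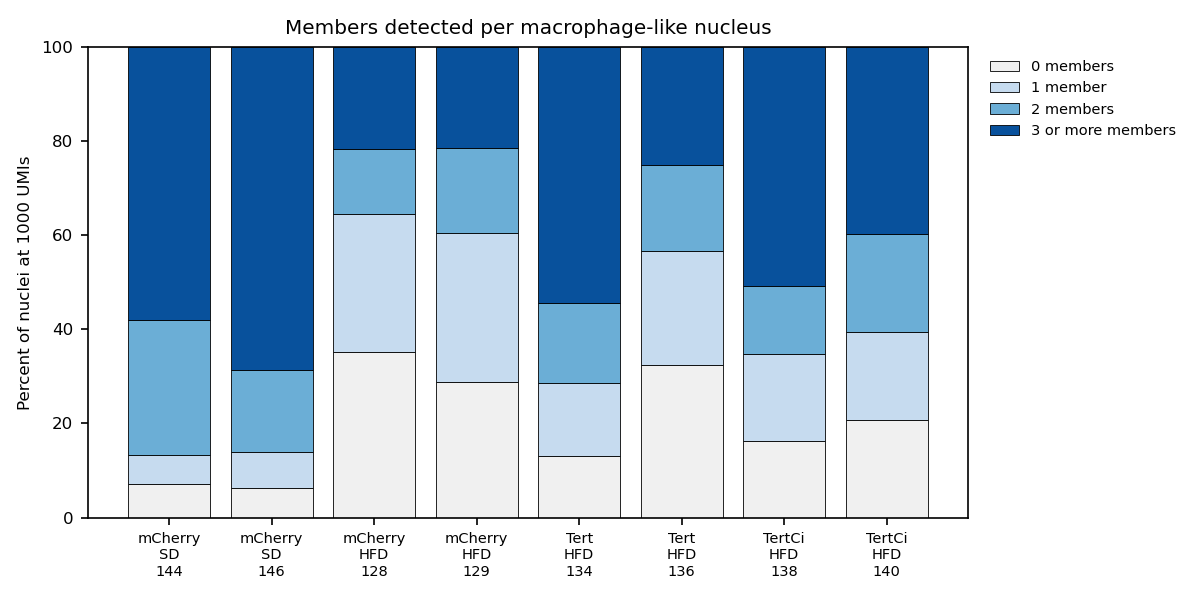
Percent of macrophage-like nuclei, each thinned to 1000 UMIs (vertical axis), with 0, 1, 2 or 3 or more of the 10 members detected, as stacked bars for the 8 mice (horizontal axis, group and the number in the mouse's label). The part with 3 or more members is 58.0% and 68.6% in mCherry SD and 21.7% and 21.5% in mCherry HFD.

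At 1000 UMIs, F13a1 was detected in 86.6% and 86.6% of macrophage-like nuclei in mCherry SD and in 27.0% and 30.3% in mCherry HFD, beside 24.4% and 20.9% and 13.5% and 15.6% of adipocyte-like nuclei. Timd4 was detected in 13.4% and 9.30% in mCherry SD and in 0.472% and 0.888% in mCherry HFD, where 0 of 200 and 1 of 64 adipocyte-like nuclei held it, too few nuclei to set the 2 classes apart by this share. In TertCi mice Timd4 was detected in 4.23% and 2.55% of macrophage-like nuclei, beside 0.480% and 0.180% of adipocyte-like nuclei.

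Of the 45 pairs of members, 38 had an expected count of at least 10 nuclei with both genes, if detection were independent within each library, and all 38 were seen together more often than that over the pooled libraries. Of 37 pairs with at least 1 library of 5 or more expected nuclei, 29 were above 1 in every such library. Mrc1 and Timd4 were above 1 in 4 of 7 libraries, with a lowest ratio of 0.889, and Cbr2 and Stab1 in 1 of 2, with a lowest ratio of 0.671. The ratio of observed to expected nuclei ran from 1.19 to 2.58 with a median of 1.61. Lyve1 and Folr2 gave the highest ratio, 2.58, followed by Cd163 and Cbr2 with 2.32 and Cd163 and Vsig4 with 2.29. For Lyve1 and Folr2 this was 37 nuclei against 14.4 expected over the pooled libraries, with 5 or more expected in 0 libraries. Cd163 and Cbr2 had 2 such libraries, with ratios of 1.216 and 3.715. Mrc1 and Timd4 gave the lowest, 1.19. At 2000 UMIs all 44 pairs with 10 or more expected nuclei were above 1 as well, but the order changed. Lyve1 and Cbr2 were then highest, with 3.03, and Mrc1 and Stab1 lowest, with 1.18. Nuclei with 2 or more members held 2 or more lipid-associated genes less often than independence within each library gives: 1717 nuclei against 2403 expected, a ratio of 0.714, and the ratio was below 1 in all 8 libraries (0.396 to 0.820). These are descriptions over nuclei, which share their library, and carry no test.

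**Figure D3:**
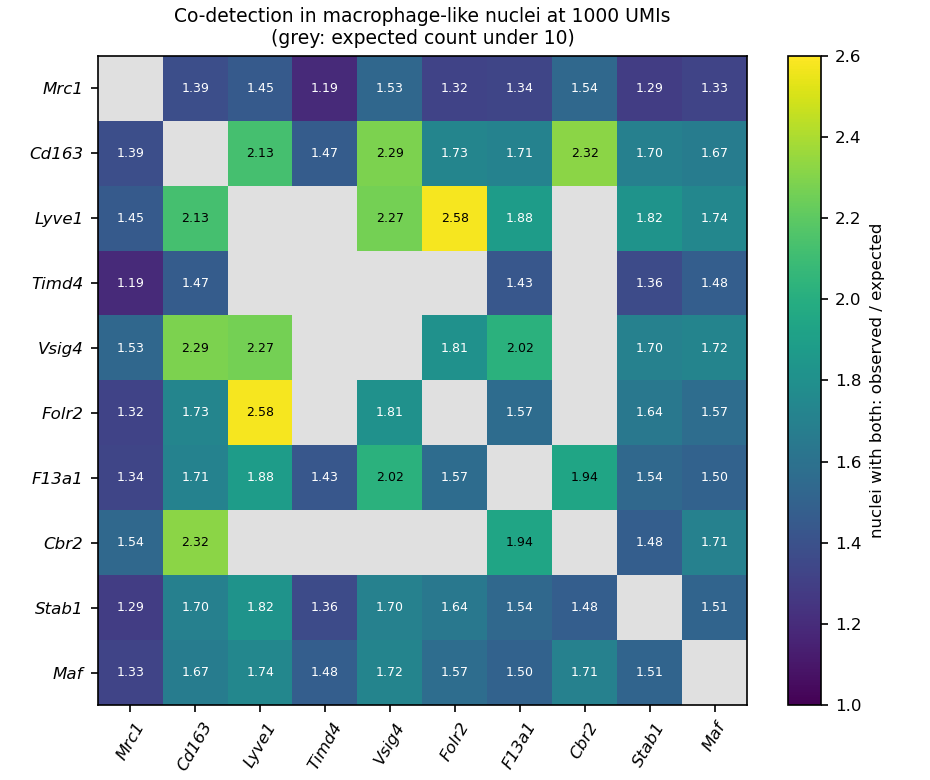
Ratio of observed to expected macrophage-like nuclei with both genes of a pair (colour and printed value), for the 10 members on both axes, at 1000 UMIs per nucleus. Grey cells had an expected count under 10 or are the same gene; all 38 ratios shown lie above 1, between 1.19 and 2.58.

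Among 3546 genes detected in at least 5% of macrophage-like nuclei, Rbpj, the transcription factor of Notch signalling, followed the number of members per nucleus most closely, with a mean correlation within libraries of 0.57 (0.37 to 0.65 over 8 libraries). It was followed by Slc9a9 (0.50), Psd3 (0.45), Mctp1 (0.45), Frmd4b (0.43), Arhgef3 (0.43) and Wwp1 (0.40). At the other end stood Alcam (-0.44), Airn (-0.38), Myo1e (-0.36) and Arhgap25 (-0.34), below 0 in all 8 libraries. These correlations were taken across nuclei at 1 depth and have no test.

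When the macrophage-like nuclei were clustered again without the members, 2 of 9 subclusters were named perivascular-like from a marker list that holds no member. In each, 15 markers of the list were raised, among them Cd209f, Cd209g, Dab2 and Selenop, while Pid1 was not. The 2 subclusters held 2968 nuclei. Between 75.3% and 100% of each library's macrophage-like UMIs of Cd163, Lyve1 and Timd4 lay there. Over all 10 members these shares were 90.2% to 100% in mCherry SD, 44.9% to 91.2% in mCherry HFD, 68.3% to 100% in Tert HFD and 76.3% to 98.8% in TertCi HFD. Perivascular-like nuclei made up 83.0% and 79.1% of macrophage-like nuclei in mCherry SD, 19.1% and 19.2% in mCherry HFD, 61.1% and 34.8% in Tert HFD, and 57.4% and 48.7% in TertCi HFD. As a share of all nuclei, mixed clusters included, they were 3.65% and 4.54%, 9.79% and 9.76%, 16.9% and 10.2%, and 11.7% and 7.74%. The mCherry HFD mice had the lowest share among macrophages and a higher counted share among all nuclei than the mCherry SD mice. Any perivascular-like nuclei in mixed clusters were left out of this count. Those clusters held 69.9% and 53.6% of F13a1 UMIs in mCherry SD and 18.4% and 26.8% in mCherry HFD. Whether such cells were more frequent among all nuclei on high-fat diet was therefore not tested. The 2 subclusters divided by group: one, led by Hrh1, Tfrc and F13a1, held 97.9% and 98.5% of perivascular-like nuclei of mCherry SD and 89.6% to 99.3% of those of Tert and TertCi mice. The other, led by C6, Ccl8 and Cd209g, held 98.6% and 94.3% of those of mCherry HFD. A comparison of groups inside perivascular-like nuclei is therefore largely one between these 2 subclusters. In that led by Hrh1, mCherry HFD had 10 and 16 nuclei, with Vsig4 at 321 and 196 CPM and Stab1 at 582 and 262 CPM. The other mice held 19.15 to 87.8 and 199 to 331 CPM there. In that led by C6, the 61 nuclei of Tert rep134 held 82.0 CPM of Vsig4 and 301 CPM of Stab1. The mCherry HFD mice held 306 and 237, and 516.5 and 469 CPM. No difference within a subcluster was tested.

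The levels inside perivascular-like nuclei were tested across samples with the same model, a comparison added after the subclusters had been seen. F13a1, Mrc1, Cd163, Lyve1 and Maf, called lower with the diet in the whole macrophage-like class, did not pass the test here. F13a1 stood at 6242 and 7380 CPM in mCherry SD, 5886 and 5877 in mCherry HFD, 7389 and 5356 in Tert HFD and 7980 and 6076 in TertCi HFD. Its log2 changes were -0.34 ± 0.17 for the diet, 0.19 ± 0.17 for Tert and 0.36 ± 0.17 for TertCi, against -2.19, 1.43 and 1.68 in the whole class. Mrc1 stood between 2282 and 2886 CPM in all 8 libraries (log2 -0.12 ± 0.16, 0.04 ± 0.16 and 0.16 ± 0.16). Cd163 (log2 0.03 ± 0.27 for the diet), Lyve1 (-0.37 ± 0.29) and Maf (0.18 ± 0.18) were not called in any of the 3 comparisons either. A missed threshold does not show equal levels. The errors given come from the fit over all groups, with 2 mice each, and not from the mice of 1 comparison alone.

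Timd4 was lower on high-fat diet inside perivascular-like nuclei too. It stood at 218 and 132 CPM in mCherry SD, 31.0 and 57.9 in mCherry HFD, 59.8 and 35.2 in Tert HFD, and 115 and 68.4 in TertCi HFD. It was lower with the diet (log2 -2.19 ± 0.36, edgeR adjusted p = 0.00118), and it was higher in TertCi than in mCherry HFD mice (log2 1.36 ± 0.33, edgeR adjusted p = 0.0109). In Tert mice the change was 0.42 ± 0.35 (edgeR adjusted p = 0.526), with the mice of both groups overlapping. The diet call held without each mouse in turn; the TertCi call was lost without TertCi rep138 (log2 0.88) or mCherry HFD rep128 (log2 0.83).

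Vsig4, the complement receptor, went the other way. It stood at 65.3 and 68.3 CPM in mCherry SD and at 306 and 236 CPM in mCherry HFD (log2 1.91 ± 0.43, edgeR adjusted p = 0.00906). Against mCherry HFD it was lower in Tert HFD, at 87.1 and 18.5 CPM (log2 -2.02 ± 0.37, edgeR adjusted p = 0.00309). It was also lower in TertCi HFD, at 75.5 and 29.1 CPM (log2 -2.09 ± 0.38, edgeR adjusted p = 0.00163). The lower value of each pair rested on 10 UMIs in Tert rep136 and 17 in TertCi rep140. Neither group was tested against mCherry SD. Both mCherry HFD mice lay above the other 6 mice, and the share of all genes that did so was not counted. Of 9123 genes tested, 39.1% were higher in both mCherry HFD mice than in both mCherry SD mice. In Tert and TertCi mice, 34.8% and 40.5% were lower in both mice than in both mCherry HFD mice. DESeq2 gave the same directions (log2 1.87, -2.26 and -2.24) without passing its threshold (adjusted p = 0.144, 0.0738 and 0.0531), and the diet call was lost without mCherry SD rep144 (log2 1.87) or rep146 (log2 1.86). Barcodes with 100 UMIs or fewer held 49.4 and 29.8 CPM of Vsig4 in mCherry HFD and 6.57 and 9.21 CPM in mCherry SD, so the free RNA differed in the same direction; its part in the result was not tested.

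Stab1, the scavenger receptor, stood at 205 and 330 CPM in mCherry SD and at 517 and 460 CPM in mCherry HFD (log2 0.72 ± 0.20, edgeR adjusted p = 0.0284). It was 327 and 222 CPM in Tert HFD (log2 -0.73 ± 0.19, edgeR adjusted p = 0.0210) and 314 and 292 CPM in TertCi HFD (log2 -0.58 ± 0.19, edgeR adjusted p = 0.0464). As for Vsig4, both mCherry HFD mice lay above the other 6, where 39.1% of all genes lay above both mCherry SD mice. The diet call was lost without rep144 (log2 0.43), rep128 (log2 0.64) or rep138 (log2 0.69), the Tert call without rep136 (log2 -0.51) or rep128 (log2 -0.65), and the TertCi call without rep128 (log2 -0.50), rep129 (log2 -0.68), rep138 (log2 -0.61) or rep140 (log2 -0.50), and under DESeq2 (log2 -0.57). Folr2 and Cbr2 were also highest in the mCherry HFD mice, without passing the test: Folr2 stood at 125 and 90.2 CPM in mCherry HFD and at 51.3 to 87.8 CPM in the other 6 mice, and Cbr2 at 59.8 and 49.4 CPM against 15.6 to 44.7 CPM.

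Counted over the 10 members in perivascular-like nuclei, the diet gave 2 higher and 1 lower, where 8.94% and 6.24% of 9123 genes were called. Tert gave 0 higher and 2 lower, against 3.52% and 8.31%, and TertCi 1 higher and 2 lower, against 6.68% and 11.7%. Without rep144, 0 members were called higher with the diet; without rep146, rep128 or rep138, 1 was. In TertCi, 0 members were called higher without rep138 or rep128 and 2 without rep136, and 1 was called lower without any 1 of the 4 rep128, rep129, rep138 and rep140. In Tert, 1 was called lower without rep136 or rep128.

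**Figure D4:**
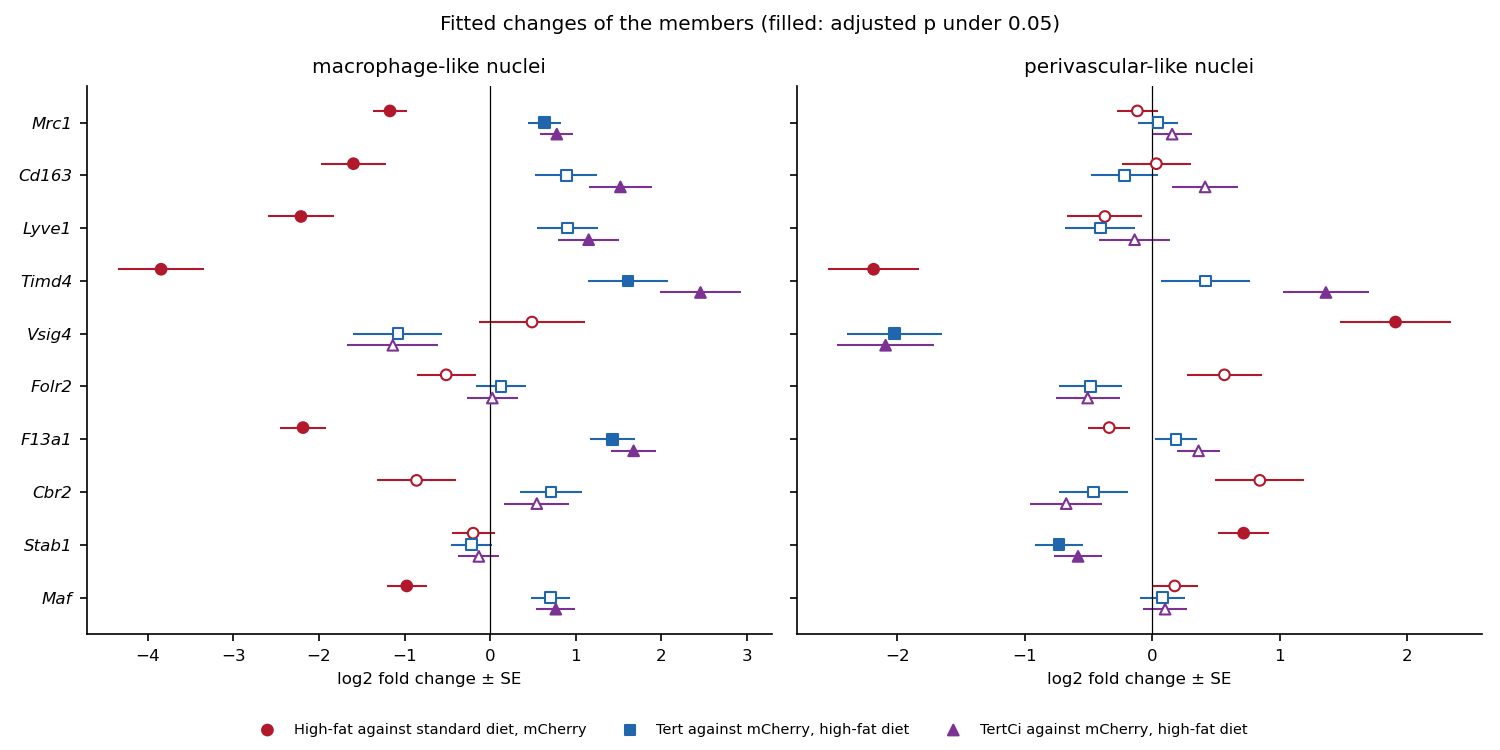
Fitted log2 fold changes with standard errors (horizontal axis, scales differ between panels) of the 10 members (vertical axis) for 3 comparisons of 2 mice against 2, in macrophage-like nuclei (left) and perivascular-like nuclei (right). Filled marks have an adjusted p under 0.05; the changes of F13a1, Mrc1, Cd163, Lyve1 and Maf seen on the left lie between -0.41 and 0.41 on the right, Vsig4 and Stab1 have filled marks on the right only, and Timd4 loses its Tert mark there.

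**Figure D5:**
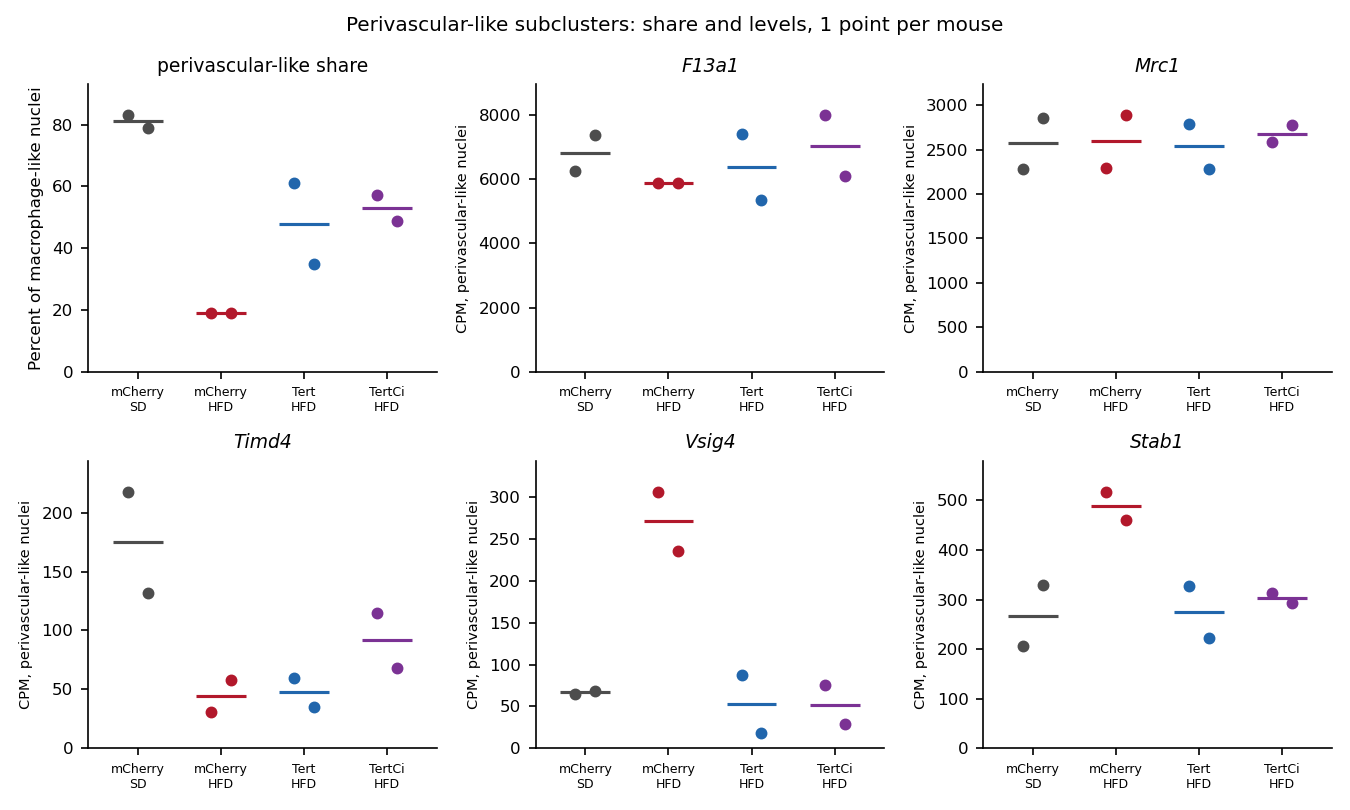
Perivascular-like share of macrophage-like nuclei (first panel, percent) and levels of F13a1, Mrc1, Timd4, Vsig4 and Stab1 inside perivascular-like nuclei (CPM, from 0) for the 4 groups; points are mice and lines means of 2. The share is lowest in the mCherry HFD mice (19.1% and 19.2%), where Vsig4 (306 and 236 CPM) and Stab1 (517 and 460 CPM) are highest.

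In the other macrophage-like nuclei, F13a1, Mrc1 and Stab1 were read at lower levels. Outside the perivascular-like subclusters, F13a1 stood at 212 and 256 CPM in mCherry HFD, 732 and 442 in Tert HFD, 733 and 722 in TertCi HFD, and 2044 and 1465 in the few such nuclei of mCherry SD. Mrc1 was read at 521 to 1153 CPM there and Stab1 at 29.8 to 159 CPM, highest in the mCherry HFD mice (147 and 159 CPM). Against the range given above for barcodes with few UMIs, F13a1 in mCherry HFD lay below it. In Tert and TertCi HFD it lay below or within that range, and in mCherry SD above it. F13a1 on high-fat diet is therefore not told apart from free RNA in these nuclei. The Mrc1 range overlapped that of the same barcodes. The part of free RNA in the Mrc1 and Stab1 levels was not tested. In mCherry HFD, perivascular-like nuclei held 91.2% and 88.6% of macrophage-like UMIs of Lyve1, 87.6% and 86.6% of F13a1, but 46.1% and 50.8% of Mrc1 and 47.3% and 44.9% of Stab1. Those of Vsig4 were 67.9% and 64.4%, those of Maf 54.6% and 50.9%, and those of Folr2 52.9% and 45.5%. A subcluster of 25 nuclei named large peritoneal macrophage-like, from markers such as Gata6 and Prg4, pooled 47 UMIs of Timd4, or 361 CPM, over 6 libraries, beside 86.0 and 39.5 CPM in the perivascular-like pair. The libraries differed: Timd4 stood at 439 CPM there in mCherry SD rep146, 118 and 487 in mCherry HFD and 786 in Tert rep134, but at 0 in both TertCi mice, on 1 to 7 nuclei each. Its pooled 230 CPM of Vsig4 rested on 30 UMIs and lay between the 75.7 and 278 CPM of that pair, and its 392 CPM of F13a1 lay below their 7466 and 5812 CPM.

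In the same macrophage-like nuclei, a list of 23 other resident macrophage genes went partly with the members. With the diet 2 rose and 10 fell. Over all genes tested the shares called higher and lower were 11.4% and 9.40% for the diet, 6.83% and 11.0% for Tert, and 9.84% and 14.6% for TertCi. The lectin genes Mgl2 (log2 -2.47 ± 0.32, edgeR adjusted p = 0.000360) and Cd209b (log2 -2.49 ± 0.43, edgeR adjusted p = 0.00211) fell, while the chemokine Ccl8 rose (log2 2.65 ± 0.82, edgeR adjusted p = 0.0395). In Tert mice 6 of the 23 rose and 0 fell, among them Mgl2 (log2 2.62 ± 0.28), Cd209d (1.85 ± 0.31) and Rbpj (1.32 ± 0.26), with edgeR adjusted p of 0.000310, 0.00287 and 0.00563. In TertCi mice 6 rose and 1 fell, the latter Ccl8 (log2 -2.24 ± 0.57, edgeR adjusted p = 0.0150). The median log2 change of the list was -1.03, 0.52 and 0.40 in the 3 comparisons. Several of its genes, among them Mgl2, Cd209d, Rbpj and Ccl8, also served to name the perivascular-like subclusters.

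All 14 lipid-associated genes passed the test as higher with the diet, where 11.4% of all genes tested did, and as lower in Tert and in TertCi mice, where 11.0% and 14.6% did. Their median log2 changes were 3.56, -1.33 and -1.76, beside 0.10, -0.056 and -0.077 over all genes. Gpnmb, a lysosomal glycoprotein, rose from 41.8 ± 0.939 to 1439 ± 252 CPM with the diet (mean ± SD, n = 2; edgeR log2 4.95 ± 0.26). The cathepsin Ctsl fell by 2.45 (± 0.21) on the log2 scale in Tert and by 3.23 (± 0.23) in TertCi mice. Inside perivascular-like nuclei the 14 genes summed to 423 and 537 CPM in mCherry SD, 3572 and 2599 in mCherry HFD, 1204 and 793 in Tert HFD, and 603 and 520 in TertCi HFD. Barcodes with 100 UMIs or fewer held 848 and 1057, 6324 and 7632, 2353 and 2004, and 1353 and 1486 CPM in the same order, above the perivascular-like level in each of the 8 libraries. The level in perivascular-like nuclei is therefore not told apart from free RNA, and no change of these genes is read there. The other macrophage-like nuclei held 2044 and 1918, 9164.5 and 8139, 5874 and 4362, and 4416 and 3997 CPM, above the low barcodes of their library. Free RNA moved in the same direction as the calls in the whole macrophage-like class. Its part in those calls and in the Gpnmb rise was not tested. This list also served to name subclusters.

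Among 21 macrophage transcription factors, 1 rose and 7 fell with the diet, where 11.4% and 9.40% of all genes tested were called higher and lower. Nr1h3, the oxysterol receptor LXRα, rose (log2 1.79 ± 0.47, edgeR adjusted p = 0.0189), and its partner Rxra fell (log2 -1.60 ± 0.26, edgeR adjusted p = 0.00147). Rxra rose by log2 1.28 ± 0.22 in Tert and 1.31 ± 0.22 in TertCi mice, where 3 factors rose and 2 fell in each. Over all genes the shares were 6.83% and 11.0% for Tert, 9.84% and 14.6% for TertCi. Of 11 genes of haem and iron handling, 3 rose and 3 fell with the diet: the ferritin genes Ftl1 (log2 4.60 ± 0.41) and Fth1 (3.43 ± 0.47) rose, and the transferrin receptor Tfrc (-1.81 ± 0.22) and the iron exporter Slc40a1 (-2.22 ± 0.44) fell. In Tert and TertCi mice both ferritins fell and Tfrc rose (log2 2.46 ± 0.21 and 2.14 ± 0.20). Of 11 testable scavenger receptors outside the members, 5 rose and 2 fell with the diet, and 0 rose and 4 fell in each of Tert and TertCi mice; Lrp1 rose with the diet (log2 1.97 ± 0.17) and Colec12 fell (-1.42 ± 0.30). Of 10 testable genes of apoptotic cell uptake, 4 rose and 2 fell with the diet, beside 11.4% and 9.40% of all genes; the integrin subunit Itgav rose (log2 2.40 ± 0.19) and Gas6, a bridging ligand, fell (-1.23 ± 0.25).

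Summed over all nuclei, where fewer macrophages and less RNA per macrophage cannot be told apart, the order changed. With the diet Vsig4 (log2 2.36 ± 0.67), Folr2 (1.15 ± 0.31) and Stab1 (1.16 ± 0.19) rose and Timd4 (-2.37 ± 0.45) fell, with edgeR adjusted p of 0.0258, 0.0199, 0.00286 and 0.00571. Vsig4 stood at 7.18 and 7.42 CPM in mCherry SD and 53.5 and 49.2 CPM in mCherry HFD. In these sums the share of macrophage-like nuclei moves with the diet, from 4.40% and 5.74% to 51.3% and 50.9%. F13a1, at 984 and 800 CPM against 795 and 870 CPM, did not pass the test (log2 -0.57 ± 0.27). In TertCi mice Vsig4 (log2 -2.49 ± 0.67), Folr2 (-1.47 ± 0.31) and Stab1 (-1.34 ± 0.19) fell, and in Tert mice Stab1 fell (-0.76 ± 0.19), with edgeR adjusted p of 0.0243, 0.00985, 0.00206 and 0.0271. With 1 mouse left out at a time, the Stab1 change in Tert mice ran from -1.06 to -0.51. Of 21101 genes tested, the shares called higher and lower were 22.3% and 18.5% for the diet (3 and 1 of the members), 10.9% and 10.9% for Tert (0 and 1) and 16.1% and 19.4% for TertCi (0 and 3). Without any 1 of the 4 mCherry mice, 1 member was called higher with the diet; the Tert call was lost without rep128, rep129, rep136, rep138 or rep140, and 4 members were called lower without rep134. In TertCi, 1 was called lower without rep128 or rep140 and 5 without rep134.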

How the data were processed

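Nuclei of visceral white adipose tissue from 8 mice were sequenced, 1 library per mouse. The authors deposited unfiltered UMI counts per feature and barcode; per the file headers they come from Cell Ranger 7.1.0, while the submitters' processing notes name Cell Ranger 5.0.1, bcl2fastq 2.20.0 and mm39. The annotation and the counting of introns are not given in the sources used here. Per the labels' protocols tissue was handled in batches of 2, but no batch is given per mouse, so batch and group cannot be told apart. The members and gene lists were chosen with earlier results of these data known, and the perivascular-like comparison was added after seeing the data.

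Nuclei were barcodes above 10% of the 99th percentile of the top 5000 barcodes (at least 500 UMIs and 300 genes, at most 5% mitochondrial UMIs), which gave thresholds of 987 to 4705 UMIs. Scanpy 1.11.5 gave Scrublet doublet scores, by which the highest 1.59% to 6.35% of barcodes, a share set by their number, were removed, and clustered the nuclei on 2000 variable genes without the members (30 components, 15 neighbours, Leiden resolution 1; 0.5 for subclusters). Counts were summed per library and class, filtered with filterByExpr, scaled by TMM and fitted over all 4 groups with the quasi-likelihood test of edgeR 4.0.16, with Benjamini-Hochberg adjustment over all genes tested and a threshold of 0.05; DESeq2 1.42.0 was an alternative. The script was checked on simulated data. With 2 mice per group, each p-value sets a group difference against the spread between these samples. That spread is 1 estimate per gene, shared by the 4 groups. The standard error of a log2 change was derived from the same test, not from the 2 mice of a group alone. CPM was computed from the summed counts with the class's UMI total in that library as denominator. Of each list, up to 4 called genes with the largest change and a mean of at least 5 CPM could be named, and 8 genes most like and 4 least like the members, of which 1 is not reported here. Levels are not compared between genes. Columns of values left unused numbered 0. DNA sequences are from the RefSeq promoter table.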

Additional observations from a re-analysis of the deposited data

How the results depend on the processing

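No paired analysis was possible because the mouse numbers differ between all 4 groups. Each sentence gives values that left the main result, and the cause was not tested.

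In macrophage-like nuclei, the genes called with the diet numbered 5213 with 1000 UMIs in every library, 6975 with nuclei taken by 3 macrophage markers and 1217 with nuclei thinned to 1000 UMIs; for TertCi they numbered 5667 with 3 markers and 1992 when thinned. With 3 markers, members called were 1 higher and 2 lower for the diet, 1 higher for Tert and 2 higher for TertCi. Members called higher on library totals were 1 for Tert and 3 for TertCi. With no filter 6 were higher and 1 lower for Tert, and 1 lower for TertCi, as was 1 with 1000 UMIs in every library. Without the cluster led by Cd226 and Skint3, 7 were higher for Tert. Without a filter, 46 genes differed between Tert and TertCi.

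Directions turned for members that had not passed the test. With 3 markers Folr2 gave 0.58 (diet), -0.28 (Tert) and -0.40 (TertCi) and Stab1 0.67 (diet). For TertCi, Folr2 gave -0.035 under DESeq2, -0.13 on library totals, -0.032 with no filter and -0.12 with 1000 UMIs. Without the Cd226 cluster Stab1 gave 0.32 for Tert and 0.47 for TertCi, the latter called (edgeR adjusted p = 0.0419), and 0.055 for TertCi when the members were kept for clustering. In perivascular-like nuclei on library totals, Mrc1 gave 0.023 (diet) and -0.045 (Tert) and Maf -0.0098 (Tert) and -0.024 (TertCi).

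In all nuclei, with no filter 2 members were lower for the diet, 2 higher and 3 lower for Tert among 6913 genes, and 1 higher for TertCi. DESeq2 called 1 higher for Tert; with 1000 UMIs 0 were lower for Tert and 1 higher for TertCi; on library totals 5 were lower for TertCi. Between Tert and TertCi, DESeq2 called 174 genes and the fit with no filter 557. In perivascular-like nuclei DESeq2 called 815 (diet), 480 (Tert), 893 (TertCi) and 3 (Tert against TertCi) genes, with 1 member higher for the diet, 1 lower for Tert and 0 lower for TertCi. With no filter there were 1716 genes for Tert, 3 members higher and 1 lower for TertCi, and 68 genes and 2 members lower for Tert against TertCi.

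The mean share of nuclei with 3 or more members was 81.2%, 34.0% and 55.7% (mCherry SD, mCherry HFD, TertCi HFD) at 2000 UMIs, 87.8%, 51.0% and 64.1% unthinned, and 30.9%, 18.8% and 33.8% with 3 markers. The perivascular-like share was 78.1% in mCherry SD and 19.5% in mCherry HFD with the members kept for clustering.

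Leaving out 1 mouse gave these ranges. In macrophage-like nuclei, genes called ran from 1064 to 3621 (diet), 671 to 2643 (Tert), 889 to 4646 (TertCi) and 0 to 4 (Tert against TertCi). Members called there ran from 3 to 6 lower (diet), 1 to 7 higher and 0 to 2 lower (Tert), and 1 to 6 higher and 0 to 1 lower (TertCi). Stab1 ran from -0.45 to 0.12 (diet), -0.74 to 0.18 (Tert) and -0.28 to 0.048 (TertCi), and Folr2 from -0.50 to 0.50 (Tert) and -0.60 to 0.40 (TertCi). For Tert, Cbr2 ran from -0.27 to 1.16 and Lyve1 from -0.14 to 1.40. In all nuclei, genes called ran from 3863 to 9205 (diet), 814 to 5066 (Tert) and 2711 to 7993 (TertCi), and members from 1 to 3 higher (diet), 0 to 4 lower (Tert) and 1 to 5 lower (TertCi).

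In perivascular-like nuclei, genes called ran from 476 to 1677 (diet), 272 to 1240 (Tert), 565 to 2197 (TertCi) and 0 to 23 (Tert against TertCi). Members called ran from 0 to 2 higher (diet), 1 to 2 lower (Tert), and 0 to 2 higher and 1 to 2 lower (TertCi). Mrc1 ran from -0.28 to 0.055 (diet), -0.12 to 0.20 (Tert) and -0.011 to 0.31 (TertCi). Cd163 ran from -0.29 to 0.31 (diet) and -0.63 to 0.11 (Tert), and Lyve1 from -0.74 to 0.19 (diet) and -0.30 to 0.058 (TertCi). Maf ran from -0.039 to 0.21 (Tert) and -0.16 to 0.36 (TertCi), and Timd4 from -0.11 to 0.79 (Tert). Where a mouse was left out, the other mouse of its group was assumed to vary like the other groups.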
